A study of Homo sapiens with 22 samples.

Results

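FOXA2 chromatin binding was profiled by ChIP-seq, which recovers and sequences DNA bound by a protein, in vehicle-treated NCI-H660 cells, a neuroendocrine prostate cancer line, and 11886 enriched regions were deposited. Of these, 6264 regions (52.7%, Wilson 95% interval 51.8 to 53.6) shared no base with the 24038 FOXA2 regions of vehicle-treated PC3 cells and none with the 18401 JUN regions of NCI-H660 cells given the negative control siRNA (siNC). These regions, chosen by the absence of an overlap in those 2 lists, are called JUN-free regions below. The name refers to the siNC JUN list of NCI-H660 cells alone. In NCI-H660 cells given FOXA2 siRNA, 565 of them (9.02%) overlapped a JUN region, against 20.2% of the whole FOXA2 list. The rest of the FOXA2 list served for comparison. It held 2944 NCI-H660-only regions that overlapped a siNC JUN region by at least 1 bp (JUN-overlapping regions) and 2678 regions that overlapped a PC3 FOXA2 region (PC3-shared regions), of which 1301 had no siNC JUN overlap. The lack of an overlap with PC3 FOXA2 and with siNC JUN is therefore fixed by the choice and is not a result.

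The other lists came from the same 3 prostate cancer lines. NCI-H660 cells gave vehicle ATAC-seq and H3K4me2 ChIP-seq, FOXA2 ChIP-seq after the LSD1 inhibitor ORY-1001 at 10 µM for 4 h, and JUN ChIP-seq after FOXA2 siRNA (siFOXA2). PC3, an androgen receptor-negative line, gave FOXA2 after vehicle, ORY-1001 (10 µM, 4 h) or the LSD1 inhibitor C12 (0.5 µM, 4 h), JUN and FOSL1 after siNC or siFOXA2, H3K27ac, ATAC, and 2 further vehicle FOXA2 ChIPs whose antibody was not labelled. LNCaP, an androgen receptor-positive luminal line, gave JUN after siNC or siFOXA1, FOXA2 and JUN in cells labelled FOXA2OE, and JUN in cells labelled FOXA2K265R. Each group was 1 list from 1 cell line, apart from the pair of unlabelled-antibody ChIPs, so no difference between lists had a replicate check and no p-value was computed. FOXA2 and JUN of NCI-H660 were also profiled under different conditions, vehicle for the former and siRNA transfection for the latter, and the lists hold no FOXA2 measurement in the siFOXA2 cells and no gene expression by which the line could be checked against its markers.

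FOXA2 belongs to the forkhead family of pioneer factors, which can bind their motif in closed chromatin and open it for other factors. In endoderm-derived tissues it helps to set cell identity, and in prostate cancer it is associated with neuroendocrine and other androgen receptor-negative states. JUN is a subunit of the dimeric AP-1 complex, H3K4me2 is a histone mark found at enhancers and promoters, and LSD1 is the demethylase that removes it and that also acts on non-histone proteins.

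Sequences of JUN-free regions are given first, because the forkhead motif sets them apart from the surrounding sequence. Each is the plus strand of hg19 and at most 300 bases around the centre of its region, with the forkhead string (T, A or G, TTT, A or G, C or T, on either strand) in capitals. The highest-scoring region near each of 3 neuroendocrine lineage genes is shown, followed by the strongest of the regions lost under ORY-1001 (SCRT2 intron), one at a promoter (FAM47E) and one that was also accessible in PC3 cells (MACROD2 intron).
NKX2-2, chr20:21499077-21499376: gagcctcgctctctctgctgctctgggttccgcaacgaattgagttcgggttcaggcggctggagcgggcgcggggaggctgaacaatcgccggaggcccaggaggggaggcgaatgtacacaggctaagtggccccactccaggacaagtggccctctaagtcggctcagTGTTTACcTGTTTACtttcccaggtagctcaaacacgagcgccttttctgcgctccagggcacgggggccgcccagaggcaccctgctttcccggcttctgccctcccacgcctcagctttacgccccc
NKX2-1, chr14:36983024-36983285: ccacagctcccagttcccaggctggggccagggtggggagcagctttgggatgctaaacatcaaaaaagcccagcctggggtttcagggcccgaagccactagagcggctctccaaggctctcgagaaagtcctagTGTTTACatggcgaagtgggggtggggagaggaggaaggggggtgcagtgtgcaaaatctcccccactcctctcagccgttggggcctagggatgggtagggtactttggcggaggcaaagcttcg
PROX1, chr1:214157671-214157970: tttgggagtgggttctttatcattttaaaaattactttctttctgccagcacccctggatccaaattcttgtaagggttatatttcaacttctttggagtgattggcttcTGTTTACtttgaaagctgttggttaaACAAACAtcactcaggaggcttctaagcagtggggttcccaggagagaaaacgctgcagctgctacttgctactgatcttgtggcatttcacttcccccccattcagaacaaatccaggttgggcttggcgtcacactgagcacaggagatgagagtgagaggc
SCRT2, lost under ORY-1001, chr20:653323-653622: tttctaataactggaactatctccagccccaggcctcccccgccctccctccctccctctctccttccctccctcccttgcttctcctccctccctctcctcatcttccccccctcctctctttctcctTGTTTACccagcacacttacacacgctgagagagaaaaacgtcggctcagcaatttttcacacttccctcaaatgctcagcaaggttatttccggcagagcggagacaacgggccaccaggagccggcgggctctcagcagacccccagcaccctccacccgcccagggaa
FAM47E promoter, chr4:77176809-77177108: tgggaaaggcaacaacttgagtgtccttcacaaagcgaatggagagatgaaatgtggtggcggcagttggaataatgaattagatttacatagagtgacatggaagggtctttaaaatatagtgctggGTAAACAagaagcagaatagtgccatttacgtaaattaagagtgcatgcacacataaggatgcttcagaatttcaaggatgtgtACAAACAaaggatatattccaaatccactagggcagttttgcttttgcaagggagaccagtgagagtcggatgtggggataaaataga
MACROD2, accessible in PC3, chr20:14074293-14074592: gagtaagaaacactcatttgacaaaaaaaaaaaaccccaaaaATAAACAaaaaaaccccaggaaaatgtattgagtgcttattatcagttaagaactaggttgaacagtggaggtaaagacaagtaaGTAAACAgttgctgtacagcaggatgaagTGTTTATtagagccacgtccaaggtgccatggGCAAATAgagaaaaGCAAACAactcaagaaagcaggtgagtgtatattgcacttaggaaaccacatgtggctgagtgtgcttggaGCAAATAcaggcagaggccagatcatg

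The NKX2-2 region held 2 forkhead strings separated by a base, the NKX2-1 region held 1, and the MACROD2 stretch held 6. In the lost SCRT2 region a single forkhead string followed a stretch rich in C and T.

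The deposited score, taken to be the caller's −log10 q-value multiplied by 10, ranks regions within a list. The scores of the JUN-free regions ran from 13 to 3453 with a median of 115, and the middle 50% lay between 66 and 198. The JUN-overlapping regions had a median of 154 and the PC3-shared regions one of 176, so the JUN-free regions were the weaker part of the list, with wide overlap. Their median width was 265 bp, against 302 bp for JUN-overlapping regions. None of the 6264 lay in a place that 17 or more of the 22 lists had in common, whereas 394 PC3-shared regions did. The 22 lists include the PC3 FOXA2 and siNC JUN lists that JUN-free regions had to miss, so the choice bears on this contrast. Read numbers are not part of the lists, so depth is unknown and the intervals given here cover the counting error of regions only.

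The limits of the choice itself were examined by distance. The nearest siNC JUN region was a median of 35.3 kb away and the nearest PC3 FOXA2 region 47.9 kb away. Within 100 bp of a siNC JUN region lay 62 JUN-free regions, with a median score of 120, of which 51.6% were kept under ORY-1001 and 82.3% had H3K4me2. Just beyond the limit, 117 NCI-H660-only regions overlapped a siNC JUN region by at most 100 bp, with a median score of 114, 59.0% kept and 80.3% with H3K4me2. For H3K4me2, the regions on either side of the JUN boundary were thus closer to each other than to the 53.1% of all JUN-free regions. Only 7 JUN-free regions had a PC3 FOXA2 region within 100 bp, and 10 regions lay just outside that condition.

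Across the 19 lists that the choice did not use, JUN-free regions were mostly found in the other NCI-H660 lists and seldom elsewhere. The choice removed regions bound by FOXA2 in vehicle-treated PC3 cells, which bears on the low shares in PC3 and LNCaP lists. The median region overlapped 3 of the 19 lists. In all, 4256 (67.9%, 66.8 to 69.1) overlapped no PC3 or LNCaP list, against 60.0% of JUN-overlapping regions. ATAC, H3K4me2 and ORY-1001 FOXA2 together, with no PC3 or LNCaP list, were found for 1320 (21.1%, 20.1 to 22.1). Another 256 (4.09%, 3.62 to 4.61) appeared in none of the 19 lists. Apart from the lists of the choice, the same held for 2 of the 2944 JUN-overlapping regions and 1 of the 2678 PC3-shared regions.

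**Figure D1:**
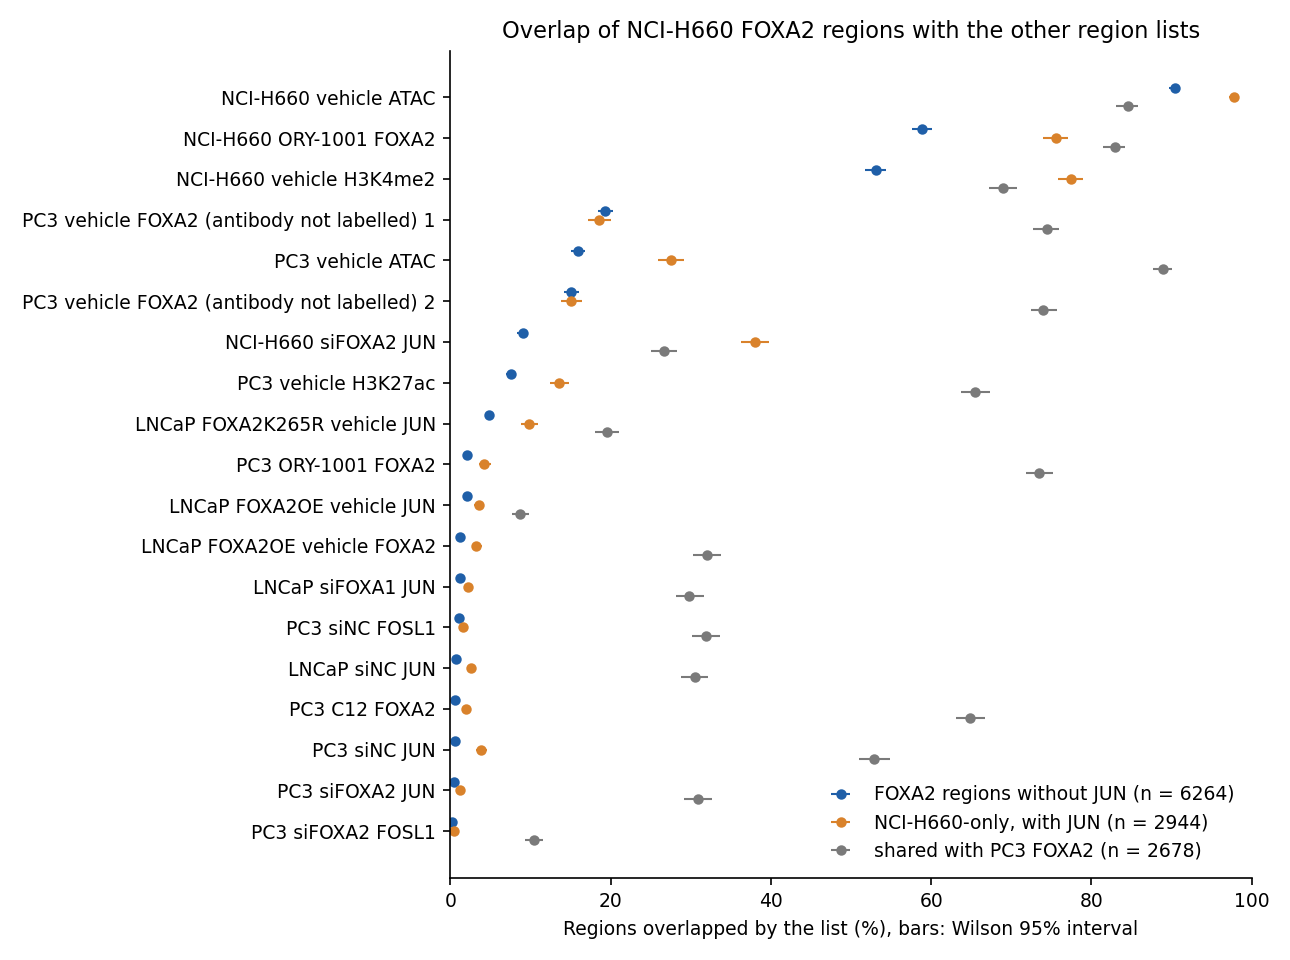
Share of NCI-H660 vehicle FOXA2 regions (%, x axis) overlapped by each of 19 lists (y axis), for JUN-free regions (blue, n = 6264), JUN-overlapping NCI-H660-only regions (orange, n = 2944) and PC3-shared regions (grey, n = 2678), with Wilson 95% intervals. JUN-free regions reached 90.4% for NCI-H660 ATAC, 58.9% for ORY-1001 FOXA2 and 53.1% for H3K4me2, and 19.3% or less for every list of PC3 or LNCaP cells.

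An ATAC region, the mark of DNA that a transposase can reach, was present at 5665 JUN-free regions (90.4%, 89.7 to 91.1), where the share over the whole FOXA2 list was 90.9%. JUN-overlapping regions reached 97.8%, a difference of −7.35 percentage points (Newcombe 95% interval −8.24 to −6.43), and PC3-shared regions 84.5%. The centre of 99.1% of these JUN-free regions lay inside the ATAC region, at a median of 87.0 bp from its centre. Strength differed more than presence did. The ATAC region's score stood at a median percentile of 74.6 within the ATAC list for JUN-free and 92.2 for JUN-overlapping regions, and 49.2% against 85.3% lay above percentile 75.

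H3K4me2 overlapped 3324 JUN-free regions (53.1%, 51.8 to 54.3), below the 62.7% of the whole FOXA2 list. JUN-overlapping regions had it in 77.4%, a difference of −24.3 points (−26.2 to −22.3). PC3-shared regions without JUN had it in 53.3%, which differed from the JUN-free regions by −0.28 points (−3.25 to 2.71), an interval that includes no difference. Of the 2940 JUN-free regions without an overlap, 23.3% had an H3K4me2 region within 500 bp and 46.4% within 5 kb. The share with the mark rose with ATAC score, from 23.7% (19 to 29.1) below percentile 25 to 69.0% (67.2 to 70.7) above percentile 75.

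Combined, 3248 JUN-free regions (51.9%) had both ATAC and H3K4me2, 2417 (38.6%) had ATAC alone, 76 had H3K4me2 alone and 523 (8.35%, 7.69 to 9.06) had neither. Median FOXA2 scores in that order were 132, 112, 77 and 44. Regions open without H3K4me2 were thus more frequent than among JUN-overlapping regions, where 21% (19.6 to 22.5) had ATAC alone and 1.60% had neither.

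FOXA2 ChIP-seq after inhibition of LSD1 with ORY-1001 gave 11469 regions in NCI-H660 cells. Of the JUN-free regions, 3687 (58.9%, 57.6 to 60.1) overlapped one and are called kept, and 2577 (41.1%, 39.9 to 42.4) did not and are called lost. The loss over the whole vehicle list was 31.6%. JUN-overlapping regions were kept in 75.6% and PC3-shared regions in 82.9%. JUN-free regions were therefore missing most often of the 3 classes.

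Score moved with that gap. Lost JUN-free regions had a median vehicle score of 72 and kept ones of 165. Divided by deciles of the vehicle list's score, the kept share of JUN-free regions was 14.6% in the lowest decile (115 of 789), 58.9% in the fifth (398 of 676) and 99.7% in the highest (323 of 324). JUN-overlapping regions of the same deciles were kept in 26.1%, 74.6% and 99.7%. With both classes given the same weights over the deciles, the difference was −9.43 points (−11.2 to −7.63), compared with −16.7 points (−18.7 to −14.7) before. A gap of −11.1 points (−13.8 to −8.51) was found against PC3-shared regions without JUN.

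**Figure D2:**
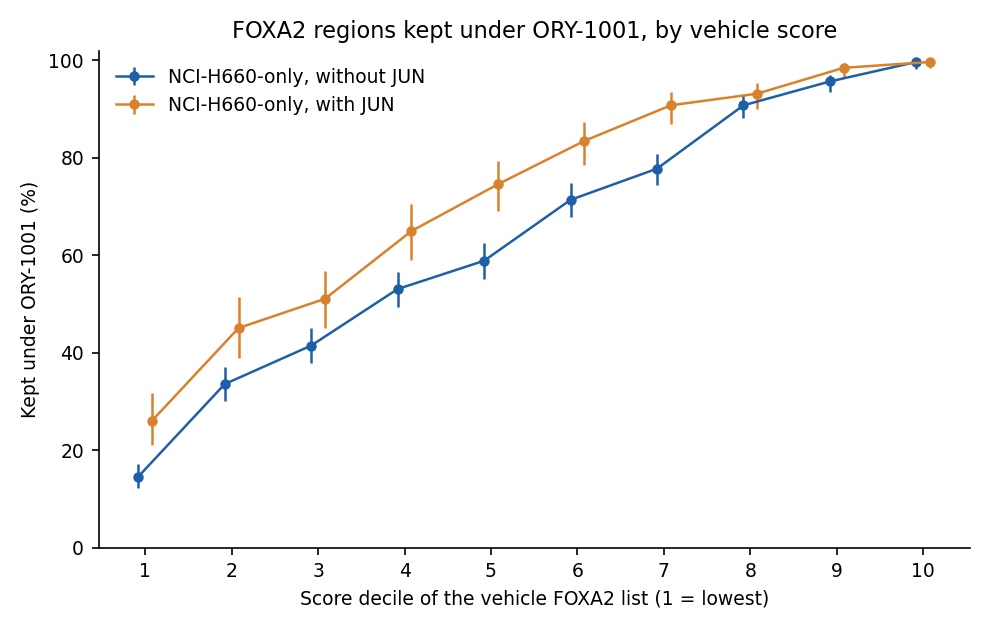
Share of NCI-H660-only FOXA2 regions kept under ORY-1001 (%, y axis) by score decile of the vehicle list (x axis, 1 the lowest) for JUN-free (blue) and JUN-overlapping regions (orange), with Wilson 95% intervals. The JUN-free regions lay lower in deciles 1 to 9, with 14.6% against 26.1% in decile 1, and both reached 99.7% in decile 10.

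Among the 3687 kept JUN-free regions, a selection that leaves out the lost ones, the median score was 165 after vehicle and 155 after ORY-1001, the median log2 ratio was −0.09 (middle 50% from −0.49 to 0.31), and 1632 of 3687 (44.3%) scored higher after the inhibitor. Depth is unknown, so the scores of the vehicle and ORY-1001 lists may differ in scale, and score differences at single regions are descriptions only. Kept shares of 63.2% with ATAC and H3K4me2, 61.0% with ATAC alone and 24.1% (20.6 to 27.9) with neither were measured. Within score deciles, an ATAC region went with a kept share 10.4 points higher (5.24 to 15.5), while H3K4me2 went with 0.48 points (−1.60 to 2.55), against 8.36 points before the deciles were matched. The kept share also followed ATAC score, at 39.6% (34.0 to 45.6) below percentile 25 and 69.9% (68.2 to 71.6) above percentile 75, with median FOXA2 scores of 80 and 147 in the same groups.

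The highest-scoring kept region lay in an intron of ACVR1C, a type I receptor of the TGF-β family, with a FOXA2 score of 3453 after vehicle and 3196 after ORY-1001. It had an ATAC score of 1352, an H3K4me2 score of 431 and, in siFOXA2 cells, a JUN score of 803. The JUN lists of LNCaP FOXA2OE and LNCaP FOXA2K265R cells also covered it. The region 4.53 kb upstream of NKX2-2, a homeodomain factor of neural and pancreatic endocrine lineages (chr20:21499051-21499402), scored 2260 after vehicle and 2888 after ORY-1001, with ATAC 990, H3K4me2 128 and no region in any other list. Both places were thus among the strongest with vehicle and with the inhibitor. An intronic region of FNDC3B (chr3:171931750-171932179) scored 2075 and 1788, with ATAC 2236 and H3K4me2 83, and was also found in 1 of the unlabelled-antibody PC3 ChIPs. The other 2 of the top 5 lay on chromosome 8. The intergenic chr8:90215548-90215915 scored 3327 and 3612 and was also found in both unlabelled-antibody PC3 ChIPs. The other, chr8:121060682-121061076 in an intron of DEPTOR, an inhibitor of mTOR signalling, scored 2312 and 2056. All 5 had ATAC and H3K4me2 regions, and 2 of them scored higher after the inhibitor.

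Lost regions were weaker, the highest holding rank 184 among the 6264. That region, in an intron of SCRT2, a zinc finger repressor expressed in neurons (chr20:653320-653626), scored 520 after vehicle and had ATAC 414 and H3K4me2 77. The next were chr6:52721041-52721285, 15.5 kb from the glutathione transferase gene GSTA5 (score 366, ATAC 1784), and chr2:83177314-83177594, 1510 kb from the nearest coding gene's start (score 362, ATAC 1214, no H3K4me2). Copies of a repeated sequence described below took the last 2 places. They were chr3:187130277-187130557 (353, ATAC 954) and chr4:158101485-158101729, 23.7 kb from the glutamate receptor gene GRIA2 (342, ATAC 1584). All 5 lost regions were accessible after vehicle, and 4 had H3K4me2. The chr6 region and the 2 repeat copies also overlapped siFOXA2 JUN, PC3 ATAC and both unlabelled-antibody PC3 ChIPs.

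JUN in siFOXA2 cells gave 59452 regions, more than the 18401 of siNC. Since siNC JUN chose the regions, this contrast is given as a description. JUN was then found at 565 JUN-free regions (9.02%, 8.34 to 9.75), against 20.2% over the whole FOXA2 list, 38.0% of JUN-overlapping regions and 7.38% of PC3-shared regions without JUN. The JUN scores at the 565 had a median of 46, and 48 of them (8.50%) reached 100. Over all 59452 siFOXA2 JUN regions the median was 39 and 8.22% reached 100, so the 565 were near the level of that list. Of those at JUN-overlapping regions, which were chosen for siNC JUN, 41.7% reached 100. Of the 565, 84.4% had H3K4me2 (50% of the others), and 52.4% were kept under ORY-1001 (59.5% of the others).

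A large share of these 565 regions were copies of a repeated sequence that has the form of an L1 element, a long interspersed repeat, a name that rests on recognition and not on a repeat annotation. A region was counted as a copy when its central 200 bp held a 20-base word present in at least 50 JUN-free regions, a definition chosen after the data were seen. This gave 313 copies (5.00% of JUN-free regions, 4.48 to 5.56) on 21 chromosomes, against 6.66% of JUN-overlapping regions, 4.37% of PC3-shared regions and 2.28% of 89245 ATAC regions without FOXA2. Among JUN-free regions with siFOXA2 JUN, 217 (38.4%, 34.5 to 42.5) were copies, and among the rest 96 of 5699 (1.68%). Without the copies, the share of JUN-free regions with siFOXA2 JUN was 5.85% (5.28 to 6.47).

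Copies differed from the other 5951 JUN-free regions in most lists. JUN of siFOXA2 cells covered 69.3% of copies (64.0 to 74.2) and 5.85% of the others, and H3K4me2 97.1% and 50.7%. JUN of LNCaP FOXA2K265R cells covered 52.1% and 2.39%, and JUN of LNCaP FOXA2OE cells 26.8% and 0.723%, while neither siNC JUN list of PC3 or LNCaP covered any of the 313 (upper Wilson limit 1.21%). These lists differ in size, with 47505 regions for LNCaP FOXA2K265R, 23994 for LNCaP FOXA2OE, 23890 for PC3 siNC and 2421 for LNCaP siNC. The small LNCaP siNC list could cover few regions of any kind. PC3 ATAC covered 44.1% and 14.4%. The copies were kept under ORY-1001 less often, at 51.8% against 59.2%, or −12.3 points (−18.1 to −6.45) within score deciles, although their median score was 148 against 113. Among JUN-overlapping regions the order was the opposite, with 165 of 196 copies kept (84.2%, 78.4 to 88.6) against 75% (73.3 to 76.5) of the others.

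**Figure D3:**
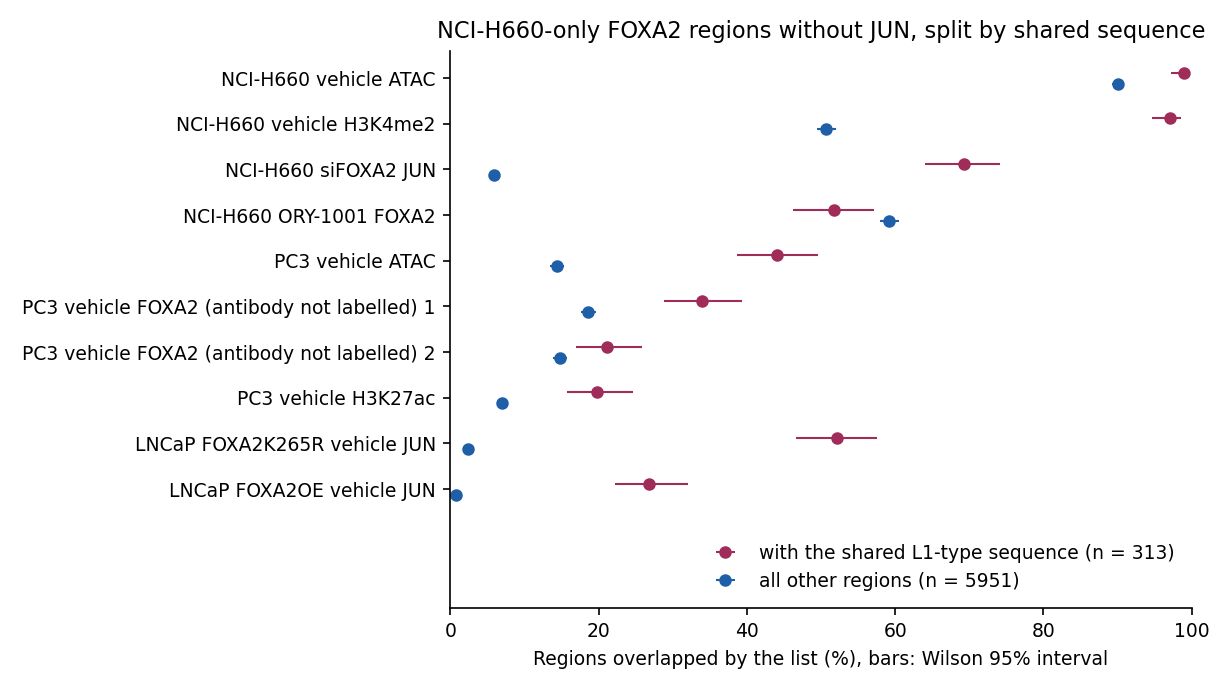
Share of JUN-free regions overlapped by 10 lists (%, x axis), for the 313 copies of the repeated L1-type sequence (dark red) and the 5951 other regions (blue), with Wilson 95% intervals. JUN of siFOXA2 cells covered 69.3% of copies and 5.85% of the others, while FOXA2 under ORY-1001 covered 51.8% and 59.2%.

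The string TGTTTAC was present in 93.3% of copies (90 to 95.6) against 32.5% of other JUN-free regions. No copy held TGACTCA, the AP-1 motif. The most shared 20-base word, held by 224 JUN-free regions, had 3383 copies in the genome, of which the FOXA2 vehicle list covered 482 (14.2%), ATAC 2120 (62.7%), siNC JUN 236 (6.98%) and siFOXA2 JUN 1227 (36.3%), lists that cover 0.120%, 2.07%, 0.258% and 0.882% of the genome. Reads from such copies may fit several places, and how they were placed is not given in the sources used here, so the part of read placement in these values was not tested. Among the 348 siFOXA2 JUN regions that were not copies, H3K4me2 was found in 76.4% and a forkhead string in 67.0%, against 49.2% and 80.1% of the remaining JUN-free regions.

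In PC3 cells, 994 JUN-free regions (15.9%, 15 to 16.8) overlapped an ATAC region, where the whole FOXA2 list had 35.2% and JUN-overlapping regions 27.5%. The whole list includes the PC3-shared regions, which the choice left out and of which 88.9% were accessible in PC3. H3K27ac, a mark of active enhancers, covered 473 (7.55%) against 13.6% of JUN-overlapping regions. Among the 994, 31.5% (28.7 to 34.4) had PC3 H3K27ac, compared with 3.04% (2.61 to 3.53) of the 5270 not accessible in PC3. The choice excluded overlap with 1 PC3 FOXA2 list only. The 2 ChIPs with an unlabelled antibody, whose lists hold 77822 and 62714 regions, covered 1211 (19.3%) and 945 (15.1%), and 1277 (20.4%, 19.4 to 21.4) were in either. These shares were 18.5% and 15% for JUN-overlapping regions. Outside both lists, PC3 accessibility fell to 425 of 4987 regions (8.52%, 7.78 to 9.33). Absence from PC3 thus depended, for these 1277 regions, on which FOXA2 list was used.

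The strongest JUN-free region with PC3 ATAC lay in an intron of MACROD2 (chr20:14074220-14074665), a gene of the macrodomain family. It scored 1674 after vehicle and 1619 after ORY-1001, with ATAC 1686 and H3K4me2 59 in NCI-H660 cells, and both unlabelled-antibody ChIPs covered it. The next, the intergenic repeat copy chr6:77586181-77586415, scored 1328 and 983 and had a siFOXA2 JUN score of 157. The third, chr11:102112907-102113214, 75.2 kb from the apoptosis inhibitor gene BIRC3, scored 1162 and 1010, with a siFOXA2 JUN score of 27 and no H3K4me2. With the ACVR1C region, which is also a repeat copy, the latter 2 were also the highest-scoring JUN-free regions with siFOXA2 JUN.

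Other lists of PC3 and LNCaP cells reached few JUN-free regions, and the choice, which removed regions bound by FOXA2 in vehicle-treated PC3 cells, bears on these shares. PC3 FOXA2 under ORY-1001 covered 127 (2.03%) and under C12 38 (0.607%), FOXA2 in LNCaP FOXA2OE cells 75 (1.2%), and JUN in those cells 127 (2.03%). JUN of LNCaP FOXA2K265R cells reached 305 (4.87%), of which 163 were copies of the repeat. For JUN-overlapping regions the shares were 4.25%, 1.9%, 3.23%, 3.53% and 9.78% in the same order, and over the whole FOXA2 list they were 18.7%, 15.4%, 8.65%, 3.91% and 9.37%.

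Motif strings were counted within 100 bp of each region's centre, where 5027 JUN-free regions (80.3%, 79.2 to 81.2) held the forkhead string. It was found in 33.4% (32.6 to 34.2) of equal windows 2 kb to either side, in 72.3% of JUN-overlapping regions and in 32.3% of ATAC regions without FOXA2. JUN-free regions exceeded JUN-overlapping ones by 7.94 points (6.06 to 9.84). The AP-1 string TGACTCA was found in 214 JUN-free regions (3.42%, 2.99 to 3.90), against 3.45% of their own nearby windows and 7.81% of JUN-overlapping regions (−4.40 points, −5.50 to −3.36). ATAC regions without FOXA2 held it in 5.28%. In JUN-free regions the AP-1 string thus stood at the level of the surrounding sequence, and the forkhead string at 2.40 times that level. The classes were split by siNC JUN, and JUN is part of AP-1. The choice therefore bears on the AP-1 values, here and by position below.

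**Figure D4:**
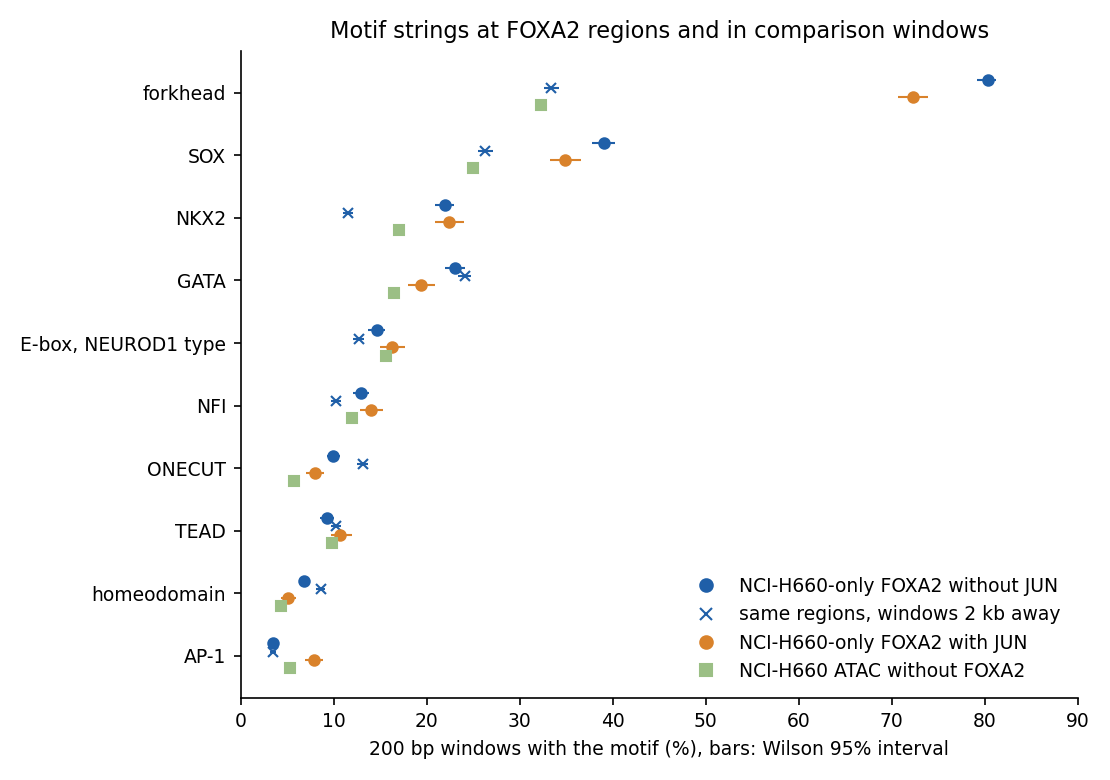
Share of 200 bp windows that hold a motif string on either strand (%, x axis), for 10 strings, in JUN-free regions (blue circles), windows 2 kb away from them (blue crosses), JUN-overlapping regions (orange circles) and NCI-H660 ATAC regions without FOXA2 (green squares), with Wilson 95% intervals. Forkhead stood at 80.3% in JUN-free regions and 33.4% in nearby windows, while AP-1 stood at 3.42% and 3.45%.

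Strings of lineage factors were examined in the same windows. CAGCTG, a form of the E-box bound by basic helix-loop-helix factors, was in 14.1% (13.3 to 15) of JUN-free regions, 7.24% of nearby windows, 18.1% of JUN-overlapping regions and 15.8% of ATAC regions without FOXA2. CAAGTG, bound by NKX2 homeodomain factors, was in 21.9% against 11.5% nearby, and the SOX strings in 39.0% against 26.3%. Those 3 strings stood above the nearby sequence. CAGATG, an E-box form bound by NEUROD1, was in 14.6% against 12.7%. CAGCTG as well as CAAGTG and CAGATG are forms of CANNTG, which was in 75% against 64.1%, and a SOX string can share bases with a forkhead string. ONECUT strings (ATCGAT or ATCAAT) were less frequent in JUN-free regions than nearby, at 9.93% and 13.1%, as was the homeodomain string TAATTA, at 6.80% and 8.59%. Against ATAC regions without FOXA2 the order was the opposite, since these held ONECUT strings in 5.73% and TAATTA in 4.28%. GATA strings (AGATAA or TGATAA) were in 23% against 24.1% nearby and 19.4% of JUN-overlapping regions, TEAD (GGAATG) in 9.23% against 10.2%, and NFI (TTGGCA) in 12.9% against 10.2%. Base composition differed as well, with a G and C content of 43.7% in JUN-free regions, 41.1% nearby, 47.0% in JUN-overlapping regions and 51.5% in ATAC regions without FOXA2. A match is a description of the letters and not a bound site.

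Forkhead strings were concentrated at the centre. They occurred at 11.3 per kb within 20 bp of the centre of JUN-free regions and at 2.22 per kb at 480 to 500 bp, compared with 9.21 and 1.95 for JUN-overlapping regions. AP-1 strings showed no such rise in JUN-free regions, with 0.196 per kb within 20 bp, where JUN-overlapping regions had 0.450 per kb.

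**Figure D5:**
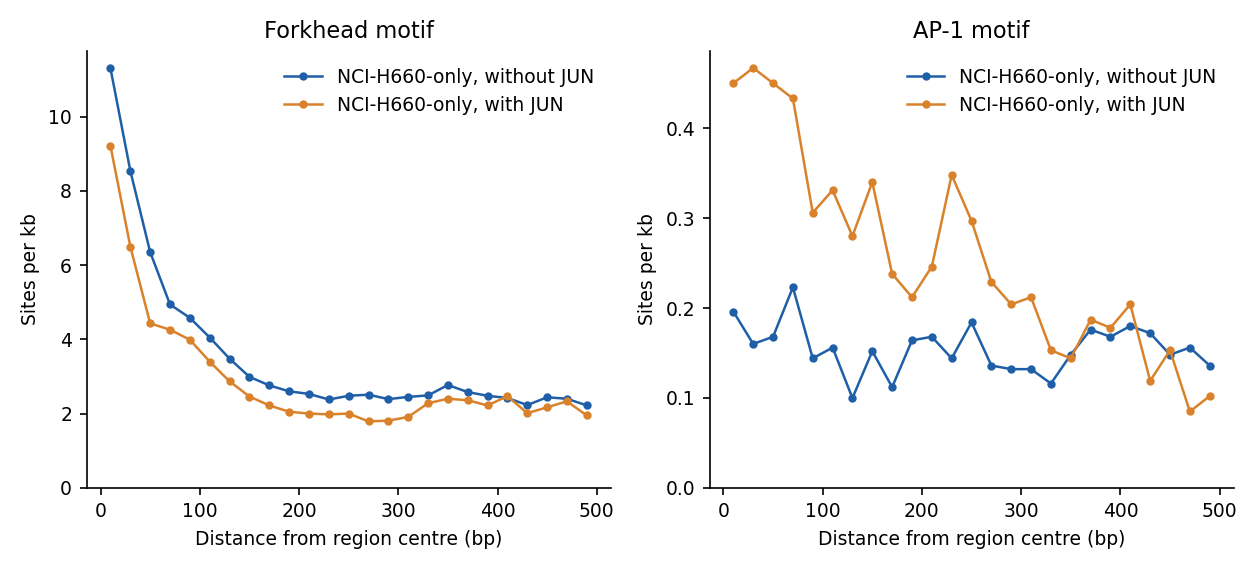
Strings per kb (y axis) by distance from the region centre in bp (x axis), in steps of 20 bp with both sides pooled, for forkhead (left) and AP-1 (right) in JUN-free (blue) and JUN-overlapping regions (orange). Forkhead fell from 11.3 to 2.22 per kb in JUN-free regions, and AP-1 started at 0.196 per kb in them and at 0.450 per kb in JUN-overlapping regions.

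The number of forkhead strings moved with score and with retention. JUN-free regions without one (1237) had a median score of 72 and were kept in 43.6%, those with 1 (2471) had 119 and 58.0%, those with 2 (1682) had 131 and 65.0%, and those with 3 or more (874) had 131 and 71.1%. Once score deciles were matched, a forkhead string went with 1.51 points in kept share (−1.31 to 4.32), against 19 points before. For the stricter TGTTTAC the matched difference was −3.96 points (−6.26 to −1.65). Accessibility was 75.8% without a forkhead string and 94.1% with 1.

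The 599 JUN-free regions without an ATAC region were mostly weak, but some of the strongest were not. In PDGFD, a gene of the platelet-derived growth factor family, an intronic region scored 1272 after vehicle and 1794 after ORY-1001, with H3K4me2 at 1127. An intergenic region, chr1:60683081-60683298, scored 1222 and 1576 with H3K4me2 at 585, and chr18:23841150-23841365 in an intron of the TFIID subunit gene TAF4B scored 1189 and 2153 with H3K4me2 at 1629. All 3 scored higher after the inhibitor and appeared in 6 or 7 other lists, among them PC3 H3K27ac and PC3 siNC FOSL1, none of which was an ATAC list. Of these, 2 held no forkhead string. The PDGFD region lies in sequence with the form of an interspersed repeat, and the part of read placement in its values was not tested.

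Most JUN-free regions lay far from genes' starts. Promoters, within 1 kb of the start of a coding transcript, held 263 (4.2%, 3.73 to 4.72), introns 2761 (44.1%), intergenic sequence 3072 (49.0%), UTRs 81, coding exons 43 and other exons 44. ATAC regions without FOXA2 lay at promoters in 17.8%, PC3-shared regions in 7.58%, and JUN-overlapping regions in 4.79%, a difference of −0.59 points from the JUN-free regions (−1.55 to 0.30). The median distance to the start of the nearest coding gene, taken as the outermost start of its annotation, was 88.6 kb, and 46.9% lay beyond 100 kb. The 263 at promoters were unlike the others. They had H3K4me2 in 72.2% and PC3 ATAC in 41.1%, 20 points (14.2 to 25.2) and 26.3 points (20.5 to 32.4) above the rest, and within score deciles their kept share differed by −9.21 points (−14.6 to −3.81).

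At promoters the highest-scoring JUN-free region was chr8:61194540-61194886, 0.754 kb from the start of CA8, a carbonic anhydrase-related gene, with 1529 after vehicle and 1418 after ORY-1001 and an H3K4me2 score of 928. Next was chr8:133932673-133932998, at an internal start of the thyroglobulin gene TG, with 1029 and 941 and no H3K4me2. Both unlabelled-antibody PC3 ChIPs covered this TG region. The FAM47E region (chr4:77176757-77177160) had 992 and 682, with H3K4me2 at 137. None of these was accessible in PC3 cells.

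Gene lists that had been set up with earlier results of these data known were used as places, with no account of expression. A JUN-free region lay within 50 kb of the start of 3147 of 20136 coding genes (15.6%). The list of neuroendocrine lineage factors had 8 of 20 such genes, namely NEUROD1, INSM1, ONECUT2, SOX2, NKX2-1, NKX2-2, PROX1 and SCRT2 (40%, 21.9 to 61.3), neuroendocrine secretory and surface markers 3 of 20 and axon guidance and synapse genes 5 of 20. AP-1 subunits and LSD1 complex genes had 2 of 10 each, and androgen receptor and luminal genes and basal genes 1 of 12 and 1 of 8. At 100 kb the figures were 28.7% for all coding genes, 7 of 20 for secretory markers, 9 of 20 for axon and synapse genes, 5 of 12 for androgen receptor and luminal genes (41.7%, 19.3 to 68), 1 of 8 for basal genes and 2 of 10 for AP-1 subunits and LSD1 complex genes each. Lists this short leave wide intervals, such as 11.2% to 46.9% for the 5 axon and synapse genes. JUN-overlapping regions lay within 50 kb of 7.79% of all coding genes and of 4 of 20 lineage factors. For them the counts were 1 of 20 secretory and surface markers and 2 of 20 axon and synapse genes. In both classes the share was higher for lineage factors than for all coding genes. This is a description only, because the lists were set up with earlier results known. A difference between the classes was not tested.

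JUN-free regions at the lineage genes differed in whether they were kept and in their scores after ORY-1001. The FOXA2 lists came from single libraries of unknown depth, so whether the inhibitor changed single scores was not tested. NEUROD1, a basic helix-loop-helix factor of neuroendocrine cells, had a region 17.6 kb downstream of its start, inside an intron of CERKL, with 446 after vehicle and 640 after ORY-1001. At NKX2-1, a homeodomain factor of lung and brain, chr14:36983024-36983285, 7.20 kb from the start, had 352 and 505. Neither had H3K4me2. Scores after the inhibitor were higher at both of these and at NKX2-2. PROX1, a homeobox factor, had an intronic region 1.30 kb from its start (chr1:214157633-214158008) with 320 after vehicle and 109 after ORY-1001, and SOX2, a stem cell and neural factor, had one 44 kb downstream (chr3:181473391-181474078) with 144 and 142. Of the 2 regions within 50 kb of SOX2 this was the kept one, and the other was lost. Also lost were the region of INSM1, a zinc finger factor of endocrine cells (chr20:20343374-20343643, score 41, 5.24 kb upstream), that of ONECUT2 (chr18:55113213-55113521, 37, intronic) and the SCRT2 region (520). The ONECUT2 region had a siFOXA2 JUN score of 54 and lay in both unlabelled-antibody PC3 ChIPs. The INSM1 and ONECUT2 regions lay in the lowest score decile, in which 14.6% of JUN-free regions were kept.

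Of the secretory and surface markers, SCG3, a granin of secretory granules, had an intronic region (chr15:52000327-52000610) with 166 after vehicle and 219 after ORY-1001, and ELAVL4, a neuronal RNA-binding protein gene, one (chr1:50498832-50499130) with 130 and 86. The region nearest to CEACAM5, a surface antigen gene, was 41.7 kb away (chr19:42254122-42254338), scored 78 and was lost. It lay at a promoter, 0.655 kb from the start of another gene, CEACAM6, and had a siFOXA2 JUN score of 28. Of the axon and synapse genes, SLIT2 (145) and EPHA5 (107) had kept regions, LRRTM4 (114) and SEMA3C (20) had lost ones, and NLGN1 had 2, 1 of them kept. Of the AP-1 subunits, JUN had a kept region 3.95 kb from its start with a score of 36 and JUND a lost one at 42.1 kb with 31. Of the LSD1 complex genes, KDM1A, which encodes LSD1, had a kept one at 20.9 kb with 44 and HDAC1, a histone deacetylase gene, a lost one at 18.1 kb with 137.

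JUN-free regions were scattered. Joined at gaps of up to about 13 kb they formed 5916 groups, of which 5593 held 1 region, and 671 regions (10.7%) lay in 323 groups of 2 to 4, against 7.03% of JUN-overlapping regions, which are fewer. The largest groups held 4. At chr11:126000164-126020301, with scores from 99 to 376, 4 were accessible, 3 had H3K4me2 and 2 were kept. At chr11:57202130-57221364, 6.64 kb from the neuronal receptor gene RTN4RL2, the 4 scored 55 to 271, and 3 were kept. Of 21 groups of 3 regions, 8 were kept whole. The 3 with the highest summed scores, a choice that favours kept regions, were among these, namely chr1:144987185-144993164 in PDE4DIP (353 to 549), chr18:30157872-30172739 (150 to 938) and chr4:37756205-37767749 (203 to 604).

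All of these comparisons set 1 list against another, and a region missing from a list may have been just under its threshold. Regions near each other share chromatin and copies of a repeat share sequence, so that the intervals, which count each region as independent, are too narrow.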

How the data were processed

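The authors profiled PC3, NCI-H660 and LNCaP cells by ChIP-seq and ATAC-seq and deposited 22 lists of enriched regions. Per the submitters' processing notes and the study's methods, reads were checked with FastQC 0.11.9, aligned to hg19 with BWA 0.7.17-r1188, converted with SAMtools 1.9, and regions were called with MACS2 2.1.4. Caller settings, control libraries, pooling of libraries, the handling of multiply mapped reads and any shift of ATAC reads are not given in the sources used here. The labels of the ATAC samples repeat the ChIP text, whereas the study describes Omni-ATAC. The labels name Millipore for the NCI-H660 FOXA2 antibody, whereas the methods name Abcam. The sample titled FOXA2K265R carries FOXA2OE as its cell line in another label, and the title was followed.

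The authors deposited interval positions and, in 20 lists, a whole-number score, taken to be the caller's −log10 q-value multiplied by 10, an inference because most lists start at 13. The lists hold no read counts, so depth is unknown. LNCaP siNC JUN and LNCaP FOXA2OE FOXA2 had no score.

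Overlap meant at least 1 bp. Shares carry Wilson and differences Newcombe 95% intervals. Kept shares were standardised over 10 score deciles of the vehicle list, weighted by the regions of both classes together. Motif strings were searched on both strands of 200 bp windows, with windows 2 kb to either side and NCI-H660 ATAC regions without FOXA2 as comparison. Genes were those of GENCODE release 44 lifted to GRCh37, and promoters were within 1 kb of the start of any coding transcript, whereas distances run from a region to the outermost start of a coding gene. Steps used python 3.11.15, numpy 2.4.6, pandas 2.3.3, pysam 0.24.0, matplotlib 3.10.9 and samtools 1.23.1, and were tested on simulated data.

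The regions, gene lists and comparisons were chosen with earlier results of these data known. Named regions were the 5 highest-scoring kept and 5 lost under ORY-1001, the 3 highest-scoring without ATAC, with PC3 ATAC, at promoters and with siFOXA2 JUN, the 5 joined groups with most regions (ties by summed score), and the highest-scoring within 50 kb of each listed lineage factor and secretory marker. The other genes and the repeated sequence were picked after their values were seen. Sequences were read from the hg19-equivalent genome. Some genes and sequences are not reported here.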

Additional observations from a re-analysis of the deposited data

How the results depend on the processing

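For 11 results, 80 alternative values were computed. Of these, 47 stayed within the main interval and 33 moved beyond it, none of which changed sign. The difference in AP-1 string share from nearby windows, −0.0319 points with an interval that includes 0, changed sign to 0.0431 points without regions near JUN or PC3 FOXA2 and to 0.0336 points without the repeat copies, both inside its interval. An overlap of at least 50% of both regions lowered the shares of JUN-free regions with ATAC to 31.0%, with H3K4me2 to 7.15%, kept under ORY-1001 to 57.5%, with PC3 ATAC to 8.45% and with siFOXA2 JUN to 2.23%, and the matched difference in kept share from JUN-overlapping regions to −7.57 points (plain difference −16.7 points). Widths of the lists differ, which this setting penalises by construction. A score of at least 30 in the second list gave 49.9% for H3K4me2, 15% for PC3 ATAC and 7.39% for siFOXA2 JUN. Restriction to regions with at least the median score gave 96.8% for ATAC, 60.7% for H3K4me2, 84.8% kept, 10.1% with siFOXA2 JUN, 3.67% at promoters, and differences from nearby windows of 55.5 points for forkhead and 8.87 points for CAGCTG. Regions outside both unlabelled-antibody PC3 ChIPs gave 51.3% for H3K4me2, 8.52% for PC3 ATAC, 8.06% for siFOXA2 JUN, 2.95% at promoters and 44.7 points for forkhead. Without regions that had siFOXA2 JUN, H3K4me2 stood at 50% and PC3 ATAC at 13.7%. Without the repeat copies, an alternative chosen after seeing the data, H3K4me2 stood at 50.7%, PC3 ATAC at 14.4%, siFOXA2 JUN at 5.85% and the forkhead difference at 45.4 points. With the 11469 top-scoring regions of both FOXA2 lists, 61.5% of 5967 JUN-free regions were kept. Windows of 250 bp to either side gave 29.0 points for forkhead and 13.3 points for CAGCTG, the single string TGTTTAC gave 32.5 points, and promoters of 5 kb held 11.1%. Apart from these definitions the cause of the moves was not tested. Depth is unknown, so a weak region absent from a list cannot be told from an unbound one. No paired analysis was possible because each group was 1 list and no result came from a test.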

Other observations

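FOXA2 after ORY-1001 also had regions that vehicle lacked. Of its 11469 regions, 5972 (52.1%, 51.2 to 53.0) met the other conditions of the JUN-free choice, with no PC3 FOXA2 and no siNC JUN overlap. Among these, 2267 overlapped no vehicle FOXA2 region, a number close to the 2577 JUN-free regions that were lost. Vehicle ATAC covered 66.3% (64.3 to 68.2) of the 2267 and vehicle H3K4me2 38.6% (36.6 to 40.6), against 90.4% and 53.1% of the JUN-free regions of the vehicle list. With 1 library per treatment, turnover between libraries and an effect of the inhibitor cannot be told apart.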
